A study of Mus musculus with 2 samples.

Results

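The ligands and receptors of the epidermal growth factor (EGF) family were followed by gene symbol through single-cell RNA sequencing of mouse colon tumour tissue. They were the 9 genes Areg, Ereg, Hbegf, Tgfa, Btc and Epgn (6 ligands) and Egfr, Erbb2 and Erbb3 (3 receptors), of 55357 genes listed in each count matrix, and all 9 were found in both. The study held 2 libraries, 1 per genotype. The library labelled KO came from animals whose Ecm1 alleles are floxed (ECM1Flox/Flox) and which carry Villin-Cre, a Cre recombinase driven by a promoter of intestinal epithelium. The library labelled WT came from animals with the same floxed alleles and no Cre listed, so both groups share the floxed gene. No treatment, time, age, sex, strain, tumour model or number of animals per library is given in the sources used here. The design text is about ECM1, a secreted matrix protein, and the neutrophils of the tumour.

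EGF family ligands are made as membrane-bound precursors, and proteases of the ADAM family cut them loose from the cell surface. The ligand then binds the receptor EGFR, which pairs with another EGFR or with ERBB2 or ERBB3 and signals through Ras and the ERK kinases. ERBB2 has no known ligand of its own, and ERBB3 is a weak kinase that binds neuregulins. In the colon the pathway is known for its part in crypt growth, in repair of the epithelium and in tumour growth, and amphiregulin, the product of Areg, is also known as a tissue repair factor made by regulatory T cells and group 2 innate lymphoid cells.

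Of the ligand genes, 4 lie side by side on mouse chromosome 5 in the order Epgn, Ereg, Areg, Btc, between Mthfd2l and Parm1 (RefSeq annotation of GRCm38). Promoter sequence is shown for Epgn, Areg and Btc of this group, whose genes had unlike levels across cell types, as described below. No promoter sequence of Ereg, which lies between Epgn and Areg, was available. Each sequence is the 250 bases before the RefSeq gene start in GRCm38.p6, read along the gene's strand, and capitals mark matches to the motifs searched.
Epgn, chr5:91027267-91027516, plus strand: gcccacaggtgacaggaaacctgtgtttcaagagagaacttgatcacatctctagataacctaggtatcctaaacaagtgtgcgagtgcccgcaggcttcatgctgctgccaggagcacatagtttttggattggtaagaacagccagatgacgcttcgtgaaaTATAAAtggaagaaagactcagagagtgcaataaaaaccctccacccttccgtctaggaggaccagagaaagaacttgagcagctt
Areg, chr5:91139349-91139598, plus strand: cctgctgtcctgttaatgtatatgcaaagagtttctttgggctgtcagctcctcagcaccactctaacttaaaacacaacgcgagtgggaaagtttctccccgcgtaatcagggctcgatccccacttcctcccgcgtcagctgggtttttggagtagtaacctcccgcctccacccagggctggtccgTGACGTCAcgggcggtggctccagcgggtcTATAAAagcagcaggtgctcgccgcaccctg
Btc, chr5:91402995-91403244, minus strand: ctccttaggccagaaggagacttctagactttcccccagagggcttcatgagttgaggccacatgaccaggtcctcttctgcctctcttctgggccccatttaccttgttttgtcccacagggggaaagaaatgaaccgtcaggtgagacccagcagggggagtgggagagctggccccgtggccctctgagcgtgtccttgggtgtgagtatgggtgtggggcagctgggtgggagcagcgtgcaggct
Both strands were searched for TATAAA, known as the TATA box. They were also searched for TGACGTCA, the cAMP response element to which CREB factors bind. The last motif was the AP-1 element to which Fos and Jun factors bind, with the letters TGACTCA, and no matches overlapped. The Areg window held TGACGTCA at 61 to 54 bases before the start and TATAAA at 31 to 26. The Epgn window held TATAAA at 86 to 81 bases before the start, and the Btc window held none of these letters. Of 32851 promoter windows of this length, 1.55% held TGACGTCA, 4.46% held an AP-1 element and 12.4% held TATAAA. A match is a description of the letters and not a measured site.

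The deposited matrices held 4896 barcodes with 75024663 counts of unique molecular identifiers (UMIs) in the KO-labelled library and 9512 barcodes with 59189995 UMIs in the WT-labelled one. After filtering, 4233 and 8262 cells remained, at a median of 10429 and 2741 UMIs, and 15 barcodes of the cells occurred in both libraries. Genes of 2 kinds were read beside the labels but could not check them. UMIs summed over Ecm1 do not show whether its floxed alleles were recombined, and no sex was given for the animals. Ecm1 itself was not lower in KO-labelled epithelial-like cells, at 40.5 CPM against 34.2 (ratio 1.18, 95% interval 1.10 to 1.28), where CPM is the gene's count for every 1000000 UMIs of the class. Xist, transcribed from the inactive X chromosome, had 96659 and 5 UMIs, and Ddx3y of the Y chromosome had 0 and 5419, so genotype label and sex genes cannot be told apart. With 1 library per genotype no test between genotypes was possible. Every interval below is an exact 95% interval that covers counting error only and says nothing of the spread between animals.

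Cells were grouped by marker genes into classes, and the UMIs of each gene were summed over a class in each library before scaling to CPM. Classes and clusters are named "-like" because the names rest on marker lists and not on an annotation by the authors. Levels are compared within a gene only. In sums over cells, fewer expressing cells and less RNA per expressing cell cannot be told apart, so shares of cells with a UMI are given where they bear on a result.

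The 9 genes fell into a few patterns across classes. Of the Areg UMIs, epithelial-like cells held 78.5% in the KO-labelled library and 45.5% in the WT-labelled one, and T, NK and innate lymphoid-like cells (lymphoid-like for short) held 16.1% and 43.2%. Such shares depend on how many cells of each class a library held, and are not levels. Epithelial-like cells were 58.9% of the KO-labelled cells and 26.9% of the WT-labelled ones, and lymphoid-like cells 7.75% and 16.8%. Fibroblast-like cells numbered 124 and 13. The Hbegf UMIs were 96.3% and 88.4% epithelial-like, with a second source of 8.29% in the monocyte and macrophage-like cells of the WT-labelled library. Tgfa, Erbb2 and Erbb3 were epithelial-like at 95.6% to 97.1% of their UMIs in either library, and Egfr at 90.4% and 94.99%. Ereg was the exception among the ligands: fibroblast-like cells held 83.6% of its UMIs in the KO-labelled library and 29.0% in the WT-labelled one, where monocyte and macrophage-like cells held 38.8%. Btc was mainly epithelial-like (88.2% and 86.4%), with 10.4% and 12.2% in fibroblast-like cells. Epgn was scarce, with 52 and 20 UMIs in all.

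**Figure D1:**
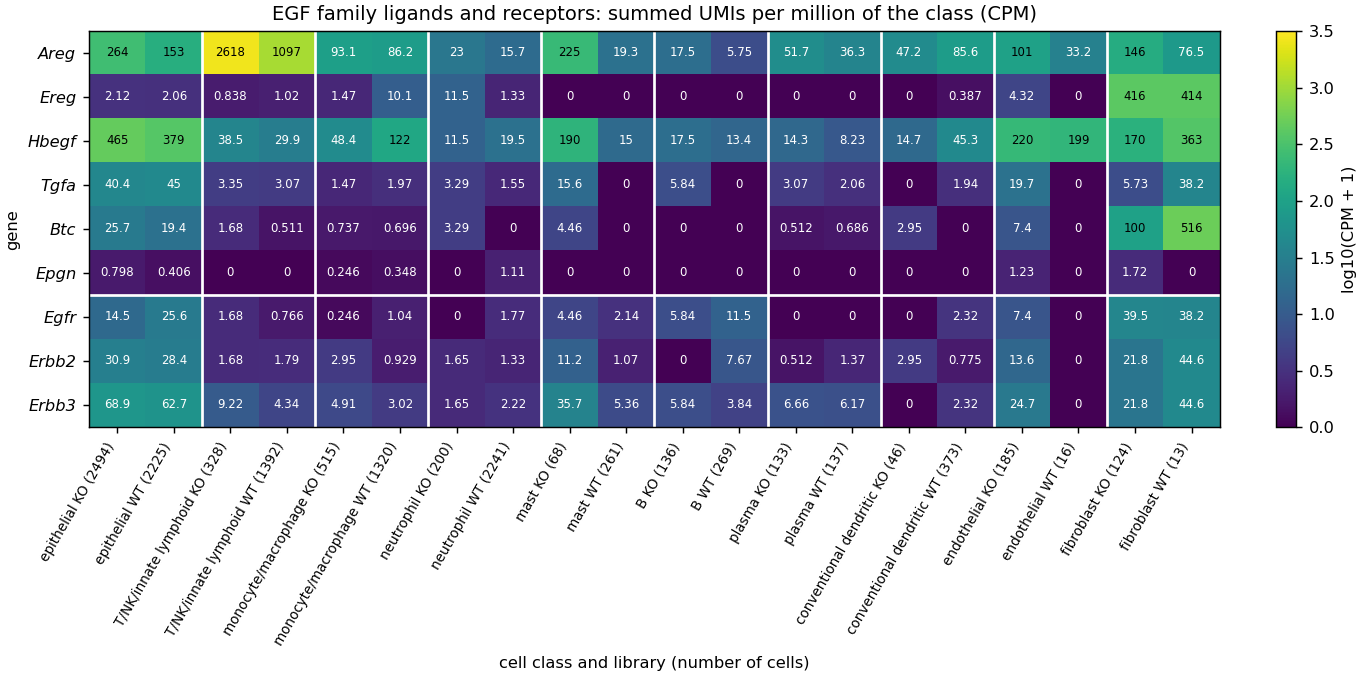
Levels of the 9 genes (rows) in each cell class and library (columns, with the number of cells), as CPM of the summed UMIs, printed in each cell and coloured by log10(CPM + 1). Areg stands highest in the T, NK and innate lymphoid-like column of either library, Hbegf in the epithelial-like column among the 7 classes with 50 or more cells per library, and Ereg in the fibroblast-like column, which has 13 cells in the WT-labelled library.

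A gene counted as higher or lower in the KO-labelled library when its CPM differed by at least 1.5-fold and its UMIs summed to at least 50 over both libraries. This was read in the 7 classes with at least 50 cells in both. In epithelial-like cells (2494 and 2225 cells) all 9 genes passed the minimum. There Areg and Epgn were higher, Egfr was lower and the other 6 were neither, beside 10.3% of all tested genes higher and 16.3% lower (26.6% either way). In T, NK and innate lymphoid-like cells (328 and 1392) 2 genes passed the minimum and 1, Areg, was higher, beside 10.0% of all tested genes (22.5% were lower and 32.5% differed either way). In monocyte and macrophage-like cells (515 and 1320) 3 passed, and Ereg and Hbegf were lower beside 17.1% of all tested genes (15.1% were higher and 32.2% differed either way). In mast-like cells (68 and 261) both tested genes, Areg and Hbegf, were higher, where 29.5% of all tested genes were higher, 23.2% lower and 52.7% differed either way. In neutrophil-like cells (200 and 2241) Hbegf was lower and Areg neither, beside 28.5% of all tested genes lower (13.5% higher, 42.0% either way). In plasma-like cells Areg was the only gene tested and was neither, where 15.6% of all tested genes were higher, 21.8% lower and 37.4% either. In B-like cells none of the 9 reached the minimum, and 11.2%, 20.3% and 31.4% of all tested genes were higher, lower or either. The genes that failed the minimum had few UMIs in those classes, so these counts are not shares of all 9 genes outside the epithelium.

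Areg, the gene of amphiregulin, was at 264 CPM (260.0 to 268) in KO-labelled epithelial-like cells and at 153 CPM (149 to 158) in WT-labelled ones. The ratio was 1.72 (1.67 to 1.78). With each cell thinned to 1000 UMIs, 17.7% (16.2 to 19.3) and 11.4% (10.1 to 12.9) of epithelial-like cells had an Areg UMI, after setting aside 155 and 141 shallower cells. All cells unthinned gave shares of 62.2% and 42.2%, at median depths of 18414.5 and 8458 UMIs. The B-like cells, which served as a background class, had an Areg UMI in 1.504% and 0.389% of thinned cells and in 2.21% and 1.12% of unthinned cells, at median depths of 2339.5 and 1736. The epithelial-like shares thus lay above the background in either library, and the 2 libraries differed by more than counting error in the thinned share as well.

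The epithelial-like cells formed 8 clusters, of which 6 had at least 50 cells in both libraries. They were absorptive-like, progenitor-like (Slc12a2, Cdca7), Wnt-high-like (Wif1, Apcdd1, Prox1), mitotic-like, Paneth defensin-like, and a cluster marked by Tgm4, S100g and Gkn3 whose cells were shallow (median 2477 and 3951 UMIs). Areg was highest in absorptive-like cells of either library, at 572 and 518 CPM, followed by progenitor-like cells at 290.3 and 152. The absorptive-like levels lay above all others in both libraries. Progenitor-like, Wnt-high-like, Paneth defensin-like and mitotic-like neighbours in that order overlapped over the libraries. The Tgm4-marked cluster was lowest at 92.6 and 62.1 CPM. In each of these 6 clusters Areg was higher in the KO-labelled library, and the ratio ran from 1.10 (1.04 to 1.17) in absorptive-like cells to 2.12 (1.84 to 2.44) in Paneth defensin-like cells. It was 1.91 in progenitor-like, 1.73 in Wnt-high-like, 1.73 in mitotic-like and 1.49 in Tgm4-marked cells. It passed 1.5-fold in 4 of the 6. Of all tested genes, 10.0% were higher in progenitor-like cells (22.3% differed either way), 10.4% in Wnt-high-like (23.3%), 12.0% in mitotic-like (20.6%) and 13.6% in Paneth defensin-like cells (24.3%). In the other 2 clusters 19.5% were higher in absorptive-like cells (33.9% either way) and 9.53% in Tgm4-marked cells (19.4%). Lower genes made up 12.9%, 8.52%, 10.7% and 9.91% of those tested in Wnt-high-like, mitotic-like, Paneth defensin-like and Tgm4-marked cells. None of the 7, 7, 7 and 6 genes that reached the minimum there was lower. The goblet-like cluster had 168 cells labelled KO and 32 labelled WT, and Areg stood there at 244 and 63.5 CPM. A further cluster led by Ubd, Prss22 and Saa1 had 24 and 431 cells, with Areg at 404 and 311 CPM.

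**Figure D2:**
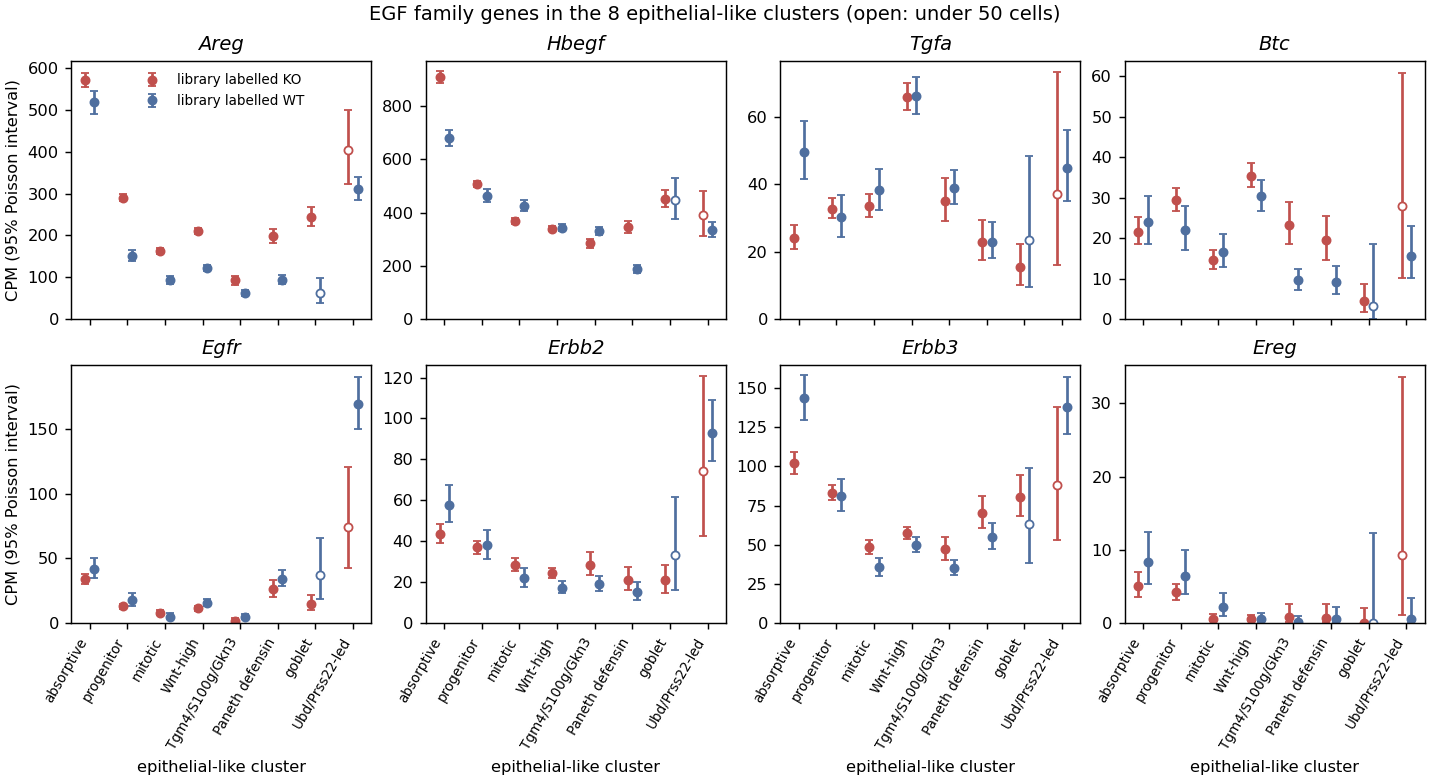
Levels of 8 of the 9 genes in the 8 epithelial-like clusters, in CPM on a linear axis from 0, for the KO-labelled library (red) and the WT-labelled one (blue). Points are summed levels, bars are exact 95% Poisson intervals, and open points have under 50 cells. Areg and Hbegf are highest in absorptive-like cells, Tgfa and Btc in Wnt-high-like cells, and Egfr in the cluster led by Ubd and Prss22, which has few cells in the KO-labelled library.

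Lymphoid-like cells had the highest Areg level of all classes, at 2618 CPM (2527 to 2711) in the KO-labelled library and 1097 CPM (1064 to 1130) in the WT-labelled one. The ratio was 2.387 (2.279 to 2.5001). Thinned to 1000 UMIs, 33.9% (28.7 to 39.4) and 27.0% (24.6 to 29.5) of cells had an Areg UMI, against 48.8% and 35.1% without thinning, at median depths of 3116 and 2296.5 UMIs. The intervals of the thinned shares overlap slightly, so the gap between libraries was clearer in CPM than in the share of cells. In this class the median ratio of all tested genes was -0.13 on the log2 scale, and centred on it the Areg ratio was 2.61. Epithelial markers reached 440 and 253 CPM in the class, and in cells with no Epcam UMI (239 and 1218 cells) Areg was at 2854 and 1146 CPM.

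Within the class, 12 sub-clusters differed widely in Areg. The gamma-delta T-like sub-cluster, led by Il17a and Trdc, had the most Areg UMIs in either library (1291 and 1703). Its level was 6535 CPM (6184 to 6902) in 46 cells labelled KO and 2268 CPM (2161 to 2378) in 214 cells labelled WT. By level the sub-cluster described next stood above it in the WT-labelled library, with intervals that overlap slightly. A sub-cluster led by Fabp5 and Il10, in which all 6 regulatory T markers were detected but whose leading genes left it unnamed, stood at 5822 CPM (5485 to 6175) in 36 cells and 2583 CPM (2375 to 2804) in 68. No ratio is drawn for sub-clusters with under 50 cells in a library. Of the lymphoid-like Areg UMIs, gamma-delta T-like cells held 41.3% and 39.7% and the Fabp5-led sub-cluster 35.5% and 13.3%. Another unnamed sub-cluster, led by Penk and Il1rl1, also with all 6 regulatory T markers, was at 2049 CPM in 60 cells and 1606 CPM in 307, a ratio of 1.28 (1.14 to 1.43). Group 2 innate lymphoid-like cells, led by Calca and Il17rb, were at 1351 CPM in 9 cells and 1150 CPM in 52. The cycling sub-cluster led by H2ac24 and Pclaf was at 2535 CPM in 7 cells and 778 in 42. CD8 T-like cells were at 12.0 and 13.8 CPM, an NK-like sub-cluster led by Gzmc and Xcl1 at 75.5 and 146, and the CD4 T-like sub-cluster led by Il22 at 165 and 239. In these last 3 sub-clusters, each with under 50 cells labelled KO, counting error does not separate the libraries. The sub-cluster led by Rn18s-rs5 and Cldn3 (74 and 12 cells) had 424 and 1068 CPM. Counting error does separate the libraries there, against the direction of the class, but only 12 cells carry the WT-labelled value. The sub-cluster named regulatory T-like, led by Ifit1 and Gbp2b, had 1 KO-labelled cell and stood at 956 CPM in 118 WT-labelled cells, with 6.36% of the WT-labelled lymphoid-like Areg UMIs. Several of these values rest on few cells, and in gamma-delta T-like cells the 5 richest cells held 49.0% of the Areg UMIs labelled KO and 22.7% of those labelled WT. Without the 5 richest cells of each library the ratio of the class was 2.11, and with the sub-clusters of at least 20 cells in both libraries at equal weight it was 2.14.

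**Figure D3:**
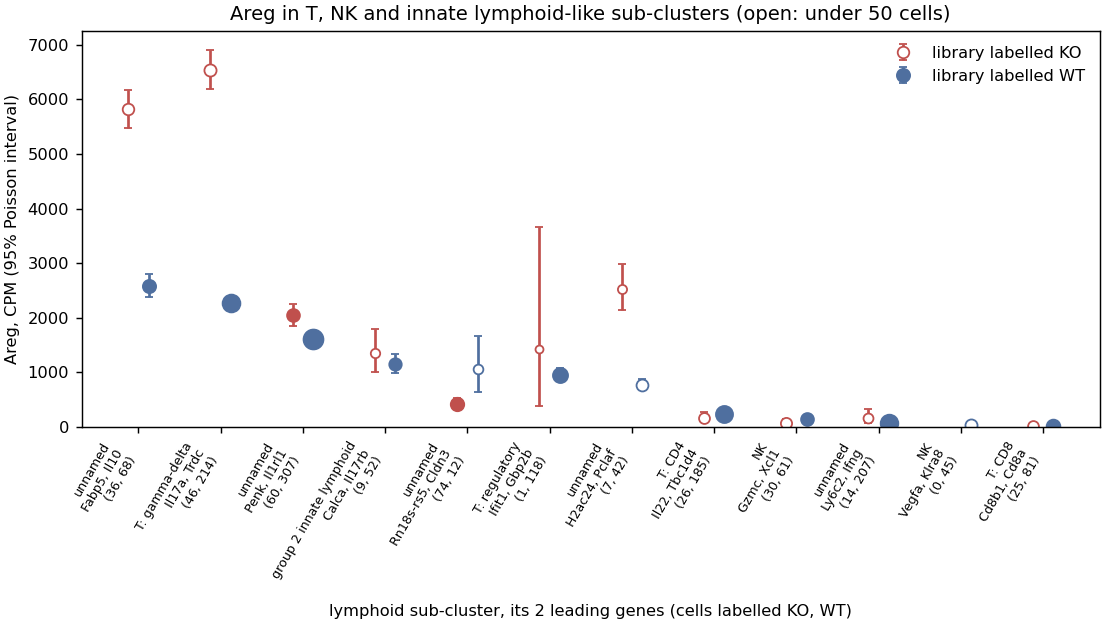
Areg in the 12 sub-clusters of T, NK and innate lymphoid-like cells, in CPM with exact 95% Poisson intervals, for the KO-labelled library (red) and the WT-labelled one (blue). Each sub-cluster is given with its 2 leading genes and its cells in each library, marker area grows with the number of cells, and open points have under 50. The gamma-delta T-like sub-cluster stands at 6535 and 2268 CPM and the CD8 T-like one at 12.0 and 13.8.

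In monocyte and macrophage-like cells Areg was at 93.1 and 86.2 CPM, a ratio of 1.08 (0.951 to 1.22). Its clusters differed from each other. A cluster led by Ccl24 and Il23a had 282 CPM (94 cells) and 165 CPM (522 cells), a ratio of 1.71 (1.45 to 2.01). Monocyte-like cells had 92.4 and 58.8 CPM, a ratio of 1.57 (1.19 to 2.06), and C1q macrophage-like cells had 32.8 and 33.2 CPM. The Ccl24-led cluster, highest in Areg, made up 94 of 515 cells of the class in the KO-labelled library and 522 of 1320 in the WT-labelled one.

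Hbegf encodes heparin-binding EGF-like growth factor, a ligand of EGFR and ERBB4 that also serves as the receptor of diphtheria toxin in other species. In epithelial-like cells it was at 465 and 379 CPM, a ratio of 1.23 (1.20 to 1.25), under the 1.5-fold line. Absorptive-like cells were highest at 910.2 and 679.6 CPM, and progenitor-like cells next at 509 and 463. The clusters did not share a direction. The ratio was 1.84 (1.66 to 2.04) in Paneth defensin-like cells and 1.34 (1.27 to 1.41) in absorptive-like cells, 0.990 (0.947 to 1.04) in Wnt-high-like cells, and 0.869 (0.821 to 0.919) and 0.861 (0.797 to 0.930) in mitotic-like and Tgm4-marked cells.

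In the monocyte and macrophage-like class Hbegf went the other way, at 48.4 CPM (41.9 to 55.6) in the KO-labelled library and 122 CPM (115 to 130) in the WT-labelled one, a ratio of 0.396 (0.339 to 0.462). It was lower in each of the 3 clusters with cells in both libraries: 80.3 and 200.3 CPM in the Ccl24-led cluster, 52.4 and 106 in monocyte-like cells, and 35.5 and 61.9 in C1q macrophage-like cells. Those ratios were 0.401, 0.495 and 0.573. Thinned to 1000 UMIs, 5.63% (3.74 to 8.08) and 10.1% (8.52 to 11.9) of the class had an Hbegf UMI, and without thinning 20.0% and 32.6%, at median depths of 6756 and 5179.5. In B-like cells the thinned shares were 0.752% and 1.17%. Epithelial markers, where Hbegf is high, were more abundant in the KO-labelled library in this class (652 CPM, 9 of 10 markers detected, Cdx2 at 0) than in the WT-labelled one (214 CPM, 9 of 10, Cdx2 at 0). Restricted to cells with no Epcam UMI (311 and 1063 cells), Hbegf was at 52.8 and 123 CPM, a ratio of 0.429 (0.349 to 0.522).

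Ereg, the gene of epiregulin, was scarce in epithelial-like cells, at 2.12 and 2.06 CPM, a ratio of 1.03 (0.748 to 1.42) that was 1.98 with each cell weighted equally. Its 122 and 61 UMIs there lay mostly in progenitor-like (60 and 20) and absorptive-like cells (39 and 23). In both of these clusters it was lower in the KO-labelled library, with ratios of 0.646 (0.384 to 1.13) and 0.606 (0.353 to 1.06) that counting error does not separate from 1. In these clusters 12.2% and 14.3% of all tested genes were lower by at least 1.5-fold. In monocyte and macrophage-like cells the sums were 6 UMIs in 515 cells and 87 UMIs in 1320, or 1.47 and 10.1 CPM, a ratio of 0.146 (0.0521 to 0.331). The Ccl24-led cluster held 68 of the 87. Few cells carry that value: 17 cells labelled WT had an Ereg UMI, and 5 of them held 73.6% of the UMIs.

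The fibroblast-like cells, in which Rgs5, Tagln and Acta2 of mural cells were also among the leading genes, numbered 124 in the KO-labelled library and 13 in the WT-labelled one. They had the highest Ereg level, 416 CPM (387 to 448) and 414 CPM (320.0 to 528). The richest of the 42 cells with an Ereg UMI in the KO-labelled library held 45.4% of them, and the 5 richest in the WT-labelled one held 96.9%. Btc stood there at 100.2 and 516 CPM, where the richest cell held 50.3% and 46.9%, and Hbegf at 169.5 and 363 CPM. Epithelial markers were at 3309 CPM in the class (10 of 10 detected) and 4819 CPM (9 of 10, Cdx2 at 0), against 12083 and 9904 CPM in epithelial-like cells, and their part in these levels was not tested. With 13 WT-labelled cells the libraries were not compared here. Endothelial-like cells numbered 185 and 16. In those labelled KO Hbegf was at 219.6 CPM and Areg at 101 CPM, and epithelial markers were at 4727 CPM with all 10 detected, against 265 CPM and 7 of 10 in those labelled WT. Their part in these levels was not tested.

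Tgfa, the gene of transforming growth factor alpha, was nearly level between libraries in epithelial-like cells, at 40.4 and 45.0 CPM (ratio 0.897, 0.838 to 0.960). Wnt-high-like cells were highest in either library, at 66.0 and 66.1 CPM, and held 46.8% and 41.9% of the epithelial-like UMIs. The other 5 clusters lay between 22.9 and 49.6 CPM, in an order that was not the same in both libraries. The absorptive-like cluster was the exception in its ratio, at 24.1 and 49.6 CPM (0.485, 0.387 to 0.610). Outside the epithelium Tgfa stayed at or below 5.84 CPM in B-like, plasma-like, neutrophil-like, lymphoid-like and monocyte and macrophage-like cells. Other classes reached higher on few UMIs. Mast-like cells had 15.6 CPM from 7 UMIs in the KO-labelled library and 0 in the WT-labelled one. Endothelial-like cells labelled KO had 19.7 CPM from 32 UMIs, and fibroblast-like cells had 5.73 and 38.2 CPM from 10 and 6 UMIs.

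Btc, the gene of betacellulin, was at 25.7 and 19.4 CPM in epithelial-like cells, a ratio of 1.33 (1.20 to 1.46). As for Tgfa, Wnt-high-like cells were highest, at 35.5 and 30.4 CPM. The ratio passed 1.5-fold in Tgm4-marked cells (23.4 and 9.56 CPM; 2.44, 1.717 to 3.5001), where 9.53% of all tested genes did, and in Paneth defensin-like cells (19.6 and 9.25 CPM; 2.12, 1.34 to 3.41). In absorptive-like and mitotic-like cells it was 0.905 and 0.886, with intervals that include 1.

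Epgn, the gene of epigen, rests on 46 and 12 UMIs in epithelial-like cells (0.798 and 0.406 CPM), of which progenitor-like cells held 28 and 2 and absorptive-like cells 11 and 6. Its ratio of 1.97 has an interval of 1.02 to 4.08, and with the clusters at equal weight it was 1.08, which ends the call.

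Among the receptors, Egfr was the gene with a difference past 1.5-fold in epithelial-like cells, at 14.5 CPM (13.6 to 15.5) in the KO-labelled library and 25.6 CPM (23.9 to 27.5) in the WT-labelled one, a ratio of 0.566 (0.512 to 0.625). The cluster led by Ubd, Prss22 and Saa1 had the highest level, 74.4 CPM in 24 cells and 169 CPM in 431 cells, and held 280 of the 758 Egfr UMIs labelled WT but 16 of the 837 labelled KO. Without this cluster the ratio was 0.834, which is under the 1.5-fold line. That alternative was chosen after seeing the data. In 4 of the other clusters Egfr was lower by less than 1.5-fold: 33.9 and 42.0 CPM in absorptive-like cells (0.808, 0.647 to 1.01), 26.1 and 34.3 in Paneth defensin-like cells (0.762), 12.8 and 17.8 in progenitor-like cells (0.721) and 11.2 and 15.8 in Wnt-high-like cells (0.709, 0.564 to 0.893). Mitotic-like cells were the exception, at 7.87 and 4.86 CPM from 85 and 20 UMIs (1.62, 0.987 to 2.79), which counting error does not separate from 1. Tgm4-marked cells had 6 and 28 UMIs, under the minimum (0.362, 0.123 to 0.891). The goblet-like cluster, with 32 WT-labelled cells, was at 14.8 and 36.8 CPM from 27 and 11 UMIs. With each cell weighted equally, which gives shallow cells and the cells of the Ubd-led cluster more weight, the class ratio was 0.241.

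Thinned shares followed the same order, with an Egfr UMI in 0.855% (0.523 to 1.32) of epithelial-like cells labelled KO and 5.47% (4.53 to 6.53) of those labelled WT. Such shares count each cell once. Before thinning, the Ubd-led cluster gave 24 of the 2494 cells labelled KO and 431 of the 2225 labelled WT. Its part in the thinned shares was not tested. Without thinning the shares were nearly equal, 20.3% and 21.9%, at unequal depths. In B-like cells, taken as background, the thinned shares were 0.752% (0.0190 to 4.12) and 0.389% (0.00985 to 2.15), so the KO-labelled thinned share does not separate from theirs at this depth. In monocyte and macrophage-like cells Egfr had 1 and 9 UMIs, or 0.246 and 1.04 CPM, and in plasma-like cells it had 0 in both libraries, well under the 14.5 and 25.6 CPM of epithelial-like cells. B-like cells stood nearer to these, at 5.84 and 11.5 CPM from 2 and 6 UMIs. In fibroblast-like cells Egfr was at 39.5 and 38.2 CPM, from 69 and 6 UMIs.

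Erbb2 and Erbb3, which encode the partners of EGFR, were near level in epithelial-like cells. Erbb2 was at 30.9 and 28.4 CPM (1.09, 1.00 to 1.18) and Erbb3 at 68.9 and 62.7 CPM (1.10, 1.04 to 1.16). The side of 1 on which these ratios fall depends on the weighting: with clusters at equal weight they were 0.939 and 0.958, and with cells at equal weight Erbb2 was at 0.683. Both genes were highest in absorptive-like cells among the clusters with at least 50 cells in both libraries, followed by progenitor-like cells. The Ubd-led cluster, with 24 and 431 cells, was higher still in Erbb2, at 74.4 and 93.1 CPM. Erbb3 stood there at 88.3 and 138 CPM. In absorptive-like cells both were lower in the KO-labelled library: Erbb2 at 43.6 and 57.9 CPM (0.753, 0.622 to 0.915) and Erbb3 at 102 and 144 CPM (0.710, 0.628 to 0.803). In Wnt-high-like cells they were at 24.3 and 17.3 CPM (1.40, 1.16 to 1.71) and at 57.5 and 50.1 CPM (1.15, 1.02 to 1.29). None of the 6 clusters passed 1.5-fold for either gene. In T, NK and innate lymphoid-like cells Erbb2 had 2 and 7 UMIs and Erbb3 11 and 17.

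**Figure D4:**
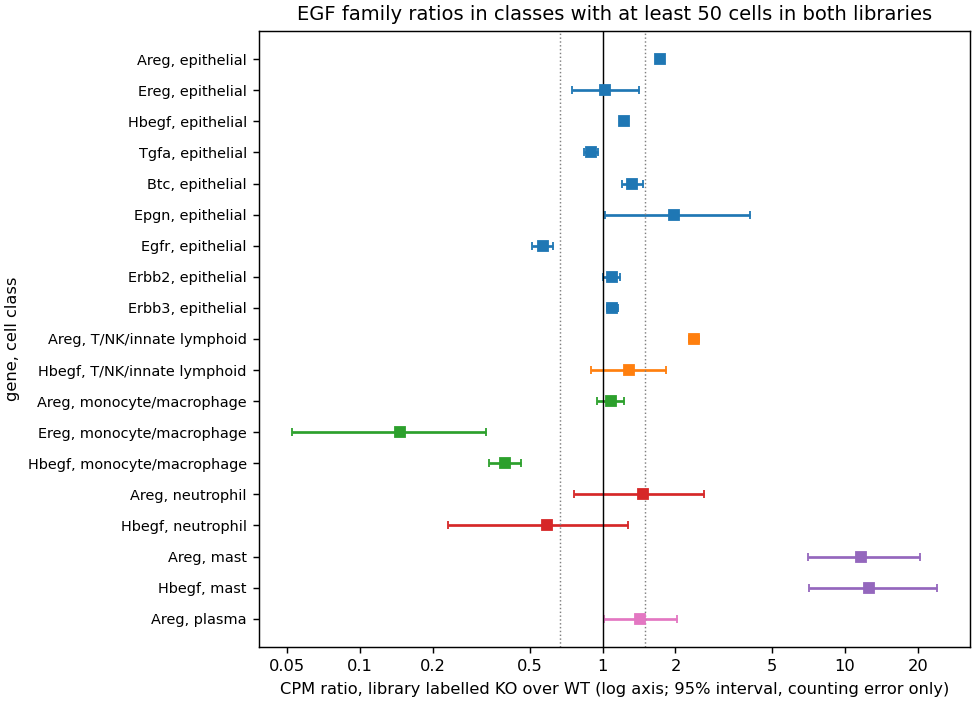
Ratio of CPM, the KO-labelled library over the WT-labelled one, on a log axis, for each gene and class with at least 50 UMIs summed and at least 50 cells in both libraries. Bars are exact conditional binomial 95% intervals for counting error, the solid line marks 1 and the dotted lines mark 1.5-fold either way. The intervals of Areg lie above 1 in epithelial-like, lymphoid-like, mast-like and plasma-like cells and include 1 in monocyte and macrophage-like and neutrophil-like cells, while those of Hbegf lie above 1 in epithelial-like and mast-like cells and below 1 in monocyte and macrophage-like cells.

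Mast-like cells showed the largest ratios among the tested genes in the 7 classes, on small sums. Areg had 101 UMIs in 68 cells labelled KO and 18 UMIs in 261 cells labelled WT, or 225 and 19.3 CPM (ratio 11.7, 7.02 to 20.5). Hbegf had 85 and 14 UMIs, or 189.6 and 15.0 CPM (12.6, 7.13 to 24.1). Epithelial RNA moved with these values. All 10 epithelial markers were detected in the mast-like cells labelled KO, at 6674 CPM, and 9 of 10 in those labelled WT, at 392 CPM with Cdx2 at 0. In mast-like cells with no Epcam UMI (34 and 229 cells) Areg had 2 and 10 UMIs (1.31, 0.140 to 6.16) and Hbegf 2 and 11 (1.19, 0.128 to 5.46), so neither ratio passed 1.5-fold there. Those with an Epcam UMI (34 and 32 cells) held 99 and 8 Areg UMIs and 83 and 3 Hbegf UMIs.

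Neutrophil-like cells had little of either ligand. Areg had 14 UMIs in 200 cells and 71 in 2241, or 23.0 and 15.7 CPM (1.46, 0.762 to 2.62), and without the 5 richest cells of each library the ratio was 0.540. Hbegf had 7 and 88 UMIs, or 11.5 and 19.5 CPM (0.590, 0.231 to 1.27), and without the 5 richest cells of each library the ratio was 0.215. Both intervals include 1. Leaving out 5 cells took a larger part of the few KO-labelled UMIs than of the WT-labelled ones. The values of 0.540 and 0.215 are thus low in part by construction. Conventional dendritic-like cells (46 and 373) had 16 and 221 Areg UMIs and 5 and 117 Hbegf UMIs, and with under 50 cells labelled KO no ratio is drawn. In lymphoid-like cells Hbegf was at 38.5 and 29.9 CPM (1.29, 0.896 to 1.83), and gamma-delta T-like cells held 24 of 46 and 67 of 117 of its UMIs. In lymphoid-like cells with no Epcam UMI (239 and 1218 cells) Hbegf was at 45.9 and 27.2 CPM (1.69, 1.13 to 2.48), past 1.5-fold. In those with an Epcam UMI (89 and 174 cells) it was at 20.3 and 44.3 CPM from 7 and 27 UMIs (0.459, 0.169 to 1.08). In plasma-like cells Areg was at 51.7 and 36.3 CPM (1.42, 1.01 to 2.02), beside epithelial markers at 725 and 447 CPM with all 10 detected in both.

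The rest of the pathway was read in 5 gene lists, chosen with earlier results of these data known. Of their 52 genes Nrdc has no row under that symbol, and Nrg1 is shared by 2 identifiers and was not used. In epithelial-like cells none of the tested genes among ligands and receptors outside the 9 (2 genes: Egf at 0.914 and Nrg4 at 1.06), shedding (5) and the Ras and ERK relay (15) passed 1.5-fold. Adam10, a protease that sheds betacellulin and EGF, was at 157 and 219.7 CPM (0.714), the Ras gene Hras at 1.30, and Map2k1, the kinase upstream of ERK, at 0.684. Feedback and negative regulators were lower in 5 of 15 and higher in 1, with a median log2 ratio of -0.40 beside -0.02 for all tested genes, of which 16.3% were lower and 10.3% higher. The ERK inhibitor gene Spry2 was at 33.0 and 74.9 CPM (0.441, 0.415 to 0.469) and the ERK phosphatase gene Dusp6 at 64.0 and 122 CPM (0.524, 0.5004 to 0.549). Lrig3, related to the receptor inhibitor gene Lrig1, was at 16.4 and 6.496 CPM (2.52, 2.15 to 2.96), and Lrig1 itself was at 1.44. Among genes transcribed upon ERK signalling 3 of 9 were lower and none higher, with a median of -0.33: Etv5 was at 66.0 and 113 CPM (0.583) and Egr1 at 792 and 1330 CPM (0.595), while Etv4 and Ccnd1 were at 1.30 and 1.28.

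In monocyte and macrophage-like cells the list of genes transcribed upon ERK signalling was lower in 6 of 8 and higher in 1, with a median log2 ratio of -1.12 beside -0.03 for all tested genes, of which 17.1% were lower and 15.1% higher. Egr1 was at 171.6 and 503.7 CPM (0.341, 0.314 to 0.369) and Ier3 at 765 and 2130 CPM (0.359, 0.346 to 0.373), and Ccnd1 was the gene on the other side, at 106 and 44.3 CPM (2.39). The relay was lower in 6 of 15 and higher in 1, with the adaptor gene Shc1 at 0.399, Sos1 at 0.518 and Hras at 1.81. Feedback genes were lower in 4 of 12 and higher in 1, with the phosphatase gene Dusp5 at 0.392, Cblb at 0.504 and Spry1 at 1.92. None of 4 shedding genes passed the line, with Adam10 at 0.714 and Adam17, the main sheddase of amphiregulin, at 0.834. In T, NK and innate lymphoid-like cells feedback genes were lower in 9 of 13 and higher in 1, with a median of -0.64, and 4 of 6 genes transcribed upon ERK signalling were lower with none higher, at -0.71, beside -0.13 for all tested genes, of which 22.5% were lower and 10.0% higher. The list transcribed upon ERK signalling was also lower in 4 of 5 tested genes in B-like cells, 4 of 5 in plasma-like, 3 of 5 in neutrophil-like and 3 of 6 in mast-like cells, beside 20.3%, 21.8%, 28.5% and 23.2% of all tested genes. Of these lists, 1 gene was higher, in mast-like cells, beside 29.5% of all tested genes. Feedback genes were lower in 6 of 8 in mast-like and 3 of 6 in neutrophil-like cells, and in none of 5 in B-like and none of 3 in plasma-like cells, where 1 was higher. The relay was more mixed, with 5 of 13 lower and 4 higher in neutrophil-like cells and 1 of 9 each way in mast-like cells. It was lower in 2 of 10 and higher in 1 in plasma-like cells. In B-like and lymphoid-like cells 2 of 7 and 3 of 14 were lower and none higher.

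Genes with the most similar pattern were read over 31 sums of a class or epithelial-like cluster in a library, which share libraries and, for clusters, cells of a class, so the values describe only these sums. Pearson's r was taken on log2(CPM + 10). Areg was most like Prelid2 (0.842), Osbpl3 (0.832) and Gstp3 (0.830). Ereg was most like Grem1 (0.956), Wnt5a (0.951) and Col5a3 (0.9505), genes of stromal cells. Only sums of at least 50 cells were used, so fibroblast-like cells entered from the KO-labelled library alone (124 cells). Ereg was at 416 CPM in that sum and at most 11.5 CPM in the others, so its values of r rest largely on that sum. Hbegf was most like Lima1 (0.965), Trim16 (0.962) and Arhgap5 (0.959), and Tgfa most like Lmo7 (0.965), Foxa1 (0.959) and Mecom (0.959). Btc was most like Ajuba (0.916), Tctn2 (0.910) and Col16a1 (0.906). Egfr was most like Ccdc68 (0.928), Duoxa2 (0.918) and the dual oxidase gene Duox2 (0.911). The receptor genes Erbb2 and Erbb3 were close to each other (0.946), Erbb2 being most like Myh14 (0.975), Misp (0.973) and Arhgef5 (0.968), and Erbb3 being like Gpa33 (0.986) and Tom1l1 (0.978). Hbegf was close to Erbb3 (0.914) and to Tgfa (0.869).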

How the data were processed

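Single-cell RNA was measured in 2 libraries of mouse colon tumour tissue, KO and WT. The deposited matrices hold whole UMI counts per gene and barcode, made by the authors with Cell Ranger 7.2.0 per the file headers and against GRCm39 per the submitters' processing notes. The labels' protocol describes bulk RNA, and the capture chemistry is not given in the sources used here. Barcodes were kept when 200 or more genes had a count and mitochondrial counts stayed below 20% (4387 and 8895). Scrublet's automatic threshold marked 2 and 0 barcodes, so the highest scores, 0.8% per 1000 barcodes, were removed instead (154 and 633). Cells were clustered with scanpy 1.11.5 in Python 3.11.15 (2000 variable genes without the 9 genes and the pathway lists, 30 principal components, 15 neighbours, Leiden resolution 1; lymphoid-like cells again with 20 components) and named from 37 marker lists with 267 genes. A name needed 3 markers detected in 10% of cells. Summed counts gave CPM with exact Poisson intervals, and ratios have exact conditional binomial intervals (scipy 1.17.1). Shares have exact Clopper-Pearson intervals. All are 95% intervals and cover counting error only. T-like in the planned comparisons was read as T, NK and innate lymphoid-like cells together. Scripts were tested on simulated data. Named were the 9 genes, the 2 highest and 2 lowest ratios per pathway list in epithelial-like and monocyte and macrophage-like cells, and the 3 most similar genes for each of the 9 with at least 200 UMIs, of which 1 is not reported here. The genes, lists and comparisons were chosen with earlier results of these data known.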

Additional observations from a re-analysis of the deposited data

Results flagged for a closer look

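Hbegf stood on opposite sides of 1 in different cell types, with intervals that do not include 1, and the difference between the types was not tested. The ratio of KO-labelled to WT-labelled CPM was 12.6 (7.13 to 24.1) in mast-like cells and 0.396 (0.339 to 0.462) in monocyte and macrophage-like cells. The mast-like value moved with epithelial markers, at 6674 and 392 CPM. It was 1.19 (0.128 to 5.46) in cells with no Epcam UMI, from 2 and 11 UMIs, under the minimum. Among epithelial-like clusters the Hbegf ratio was 1.84 (1.66 to 2.04) in Paneth defensin-like cells and 0.861 (0.797 to 0.930) in Tgm4-marked cells.

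The receptor partners showed such opposite sides as well, also untested. The Erbb2 ratio was 1.49 (1.13 to 1.98) in Tgm4-marked cells and 0.753 (0.622 to 0.915) in absorptive-like cells. The Erbb3 ratio was 1.36 (1.13 to 1.65) in mitotic-like cells and 0.710 (0.628 to 0.803) in absorptive-like cells.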

How the results depend on the processing

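No paired analysis was possible because each genotype has 1 library. The number of the 9 genes past 1.5-fold stayed within 1.5 times its value under 51 alternatives and moved further under 14. In epithelial-like cells 3 became 0 at a fold of 2. In neutrophil-like cells 1 became 2 with no doublet removal, with each cell weighted equally, without the 5 richest cells of each library, with totals without mitochondrial and ribosomal genes and when centred on the median of all genes, 0 at a fold of 2 and 6 with no filter on low counts. In monocyte and macrophage-like cells 2 became 4 at a minimum of 20 UMIs and 5 with no filter. In lymphoid-like cells 1 became 2 at 20 UMIs and 4 with no filter. In mast-like cells 2 became 7 with no filter. In those with no Epcam UMI the count was 0 by construction. Areg (2 and 10 UMIs) and Hbegf (2 and 11) fell under the minimum there, so neither was tested. The median log2 ratio of all genes was -0.13 in lymphoid-like and -0.16 in neutrophil-like cells. Over its alternatives the Areg ratio ran from 1.54 to 1.83 in epithelial-like and from 2.01 to 2.61 in lymphoid-like cells, Hbegf from 0.363 to 0.501 in monocyte and macrophage-like cells, and Egfr from 0.241 to 0.834 in epithelial-like cells. For Ereg in monocyte and macrophage-like cells, 4 KO-labelled cells had a UMI, so leaving out the 5 richest gives 0 by construction and no ratio; the other alternatives ran from 0.0938 to 0.151. In epithelial-like cells Ereg ran from 0.926 to 1.98, and Hbegf in neutrophil-like cells from 0.215 to 0.659. In neutrophil-like cells, leaving out the 5 richest took a large part of the 14 Areg and 7 Hbegf UMIs labelled KO. The low end of 0.215 and the count of 2 under that setting thus rest on small sums and follow in part by construction. Hbegf in mast-like cells was 2.26 with no doublet removal. With 1 library per genotype, variation between animals was not measured.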
